A study of Mus musculus with 4 samples.

Results

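Pou3f1, Mapk10, Fstl5, Slc6a5, Cacna2d3 and Xkr4 are 6 of the 32285 genes counted in single-cell libraries of the mouse aorta-gonad-mesonephros region (AGM), where the first haematopoietic stem cells of the embryo arise. They were chosen as neural genes with some of the greatest differences between the sorted fractions, so the MMPhigh over MMPlow difference of each gene, in all cells and within neurons, is given below as a description. The question the choice did not use is which types of neuron hold the transcripts of each gene. That neural cells rather than others hold them was largely fixed by the choice. All groups were C57BL/6J embryos at stage E11.5, in days of development, with no other allele or agent named. Cells positive for CD31, the surface protein encoded by Pecam1, had been stained with TMRM, a fluorescent dye drawn into mitochondria by the voltage across their inner membrane, and sorted into a dim (MMPlow) and a bright (MMPhigh) fraction. Each fraction had 2 libraries. Nothing in the labels says whether the libraries came from separate litters or sorts, so p-values measure only the spread between these 4 libraries, which may be technical.

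The genes serve different steps of neuronal development and signalling. Pou3f1 (also known as Oct6) is a POU-domain transcription factor of neural progenitors, of some neurons and of myelinating glia. Mapk10 encodes JNK3, the Jun kinase found mainly in neurons, and Fstl5 encodes a secreted follistatin-like protein of the nervous system. Slc6a5 encodes GlyT2, the plasma membrane transporter that returns glycine to the terminals of inhibitory neurons, and Cacna2d3 encodes an accessory alpha-2-delta subunit of voltage-gated calcium channels. Xkr4 belongs to the XK family, whose members include phospholipid scramblases. In the embryonic spinal cord, neurons arise from the neural tube in ordered types, each marked by its own transcription factors, and most release either glutamate or the inhibitory transmitters GABA and glycine.

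In GENCODE vM21 (GRCm38), Pou3f1 (ENSMUSG00000090125) lies on chromosome 4 at 124656807 to 124660655, plus strand, and has a single exon. Slc6a5 (ENSMUSG00000039728) lies on chromosome 7 at 49910146 to 49963856, plus strand. The other four span over 300 kb each. These are Mapk10 (ENSMUSG00000046709; chromosome 5, 102907948 to 103211334, minus strand), Fstl5 (ENSMUSG00000034098; chromosome 3, 76074270 to 76710019, plus strand), Cacna2d3 (ENSMUSG00000021991; chromosome 14, 28904943 to 29721864, minus strand) and Xkr4 (ENSMUSG00000051951; chromosome 1, 3205901 to 3671498, minus strand). Of 21951 protein-coding genes 2.58% span over 300 kb, and the median span is 17.4 kb. Whether reads in introns were counted is not given in the sources used here, so levels are compared between cells and not between genes.

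Because Slc6a5 and Cacna2d3 varied together across neurons (below), the 250 bases before a RefSeq start of each are shown, 5′ to 3′ on the strand of the gene, from the RefSeq annotation of GRCm38.p6, with the E-box CAGCTG in capitals. The Slc6a5 stretch is chr7:49910049-49910298 (plus strand) and the Cacna2d3 stretch is chr14:29721865-29722114 (minus strand). The GENCODE start of Slc6a5, at 49910146, lies inside its stretch, so part of that stretch is within the annotated gene. The Cacna2d3 stretch lies wholly outside its GENCODE gene.
Slc6a5: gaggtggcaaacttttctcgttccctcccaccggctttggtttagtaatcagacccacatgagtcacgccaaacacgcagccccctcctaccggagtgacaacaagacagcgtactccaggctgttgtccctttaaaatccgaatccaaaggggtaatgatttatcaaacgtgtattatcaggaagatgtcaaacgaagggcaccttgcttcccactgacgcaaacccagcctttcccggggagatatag
Cacna2d3: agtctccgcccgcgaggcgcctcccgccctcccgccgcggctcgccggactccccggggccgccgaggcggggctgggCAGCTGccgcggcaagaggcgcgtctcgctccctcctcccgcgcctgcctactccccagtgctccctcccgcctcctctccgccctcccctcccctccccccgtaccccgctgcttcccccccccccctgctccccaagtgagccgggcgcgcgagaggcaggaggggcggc
The Slc6a5 stretch was 50.4% G or C and the Cacna2d3 stretch 80%, against a median of 52.4% over all 32851 RefSeq stretches of this length. Six-letter and longer strings were searched on both strands, with overlaps allowed. The E-box CAGCTG, a letter string that bHLH factors can bind, was found once before Cacna2d3 and not before Slc6a5, and 13% of all stretches held it. The GC box GGGCGG was found 4 times before Cacna2d3 and not before Slc6a5 (32.7% of all stretches). None of CAGATG (14.4% of all), TAATTA (4.84%), ATGCAAAT (1.60%) and TATAAA (12.4%) was in either stretch. A second RefSeq start of Slc6a5 had a single CAGATG. Promoters were matched for 4 of the 6 genes, the other two being Pou3f1 and Xkr4.

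The libraries differed in depth and in the cells they held. After filters and removal of likely doublets, 15698, 18405, 4139 and 3277 cells were retained in MMPlow 1, MMPlow 2, MMPhigh 1 and MMPhigh 2. Median unique molecular identifiers (UMIs, 1 per captured transcript) per cell were 3081.5, 3639, 3796 and 22937, so MMPhigh 2 stood apart. Between 14 and 369 barcode sequences were shared by each pair of libraries. Neurons were cells of the neural clusters with at least 3 UMIs of 6 pan-neuronal genes after each cell was thinned to 2000 UMIs, and numbered 330, 393, 1145 and 1011 (2879 in all). They made up 2.12% ± 0.0234 of MMPlow cells and 29.3% ± 2.25 of MMPhigh cells (SD, n = 2 libraries each). Of the neurons 15.8%, 6.62%, 47.4% and 9.10% lay in sub-clusters with leading markers of other classes (below). Without these 278, 367, 602 and 919 neurons remained, so the 2 MMPhigh shares lay close only with such cells included. After thinning, Pecam1 UMIs were found in 12.7%, 10.2%, 1.92% and 0.692% of all neurons. The shares in endothelial-like cells, of which the MMPhigh libraries held only 16 and 14, were 58.4%, 58.4%, 75% and 64.3%.

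All 6 genes were higher in both MMPhigh libraries than in either MMPlow library, which is the pattern they were chosen for. Levels are given as CPM, the UMIs of a gene per 1000000 UMIs of the summed cells of a library. Over all retained cells Pou3f1 stood at 1.45 and 1.07 CPM in MMPlow 1 and 2 and at 22.8 and 27.0 CPM in MMPhigh 1 and 2. Slc6a5 stood at 1.87, 2.07, 31.8 and 33.5 CPM in the same order. Cacna2d3 had 15.8, 13, 206 and 261 CPM. For all of these genes the libraries of the same gate lay close together. The same separation held for Mapk10 (10.6, 9.89, 158 and 199 CPM), Fstl5 (5.18, 4.65, 79.4 and 90.6 CPM) and Xkr4 (12.1, 11.1, 65.8 and 84.8 CPM). In all cells 37.4% of the 20357 genes tested separated the groups this way, and 27.3% were called higher in MMPhigh (edgeR quasi-likelihood test, adjusted p under 0.05), so nothing is read from the members' own calls. Log2 folds of MMPhigh over MMPlow were 4.36 ± 0.16 (SE) in Pou3f1, 4.16 ± 0.13 in Mapk10 and 4.15 ± 0.11 in Fstl5. They were 4.08 ± 0.11 in Slc6a5, 4.06 ± 0.14 in Cacna2d3 and 2.74 ± 0.12 in Xkr4. By size these ranked 21 to 44 of 20357, apart from Xkr4 at 588. The share of all UMIs that came from neurons was 2.46% in MMPlow and 27.6% in MMPhigh, a log2 difference of 3.49. This share counts the neurons in sub-clusters with leading markers of other classes. The folds of 5 of the 6 genes lay above 3.49 and that of Xkr4 below it.

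**Figure D1:**
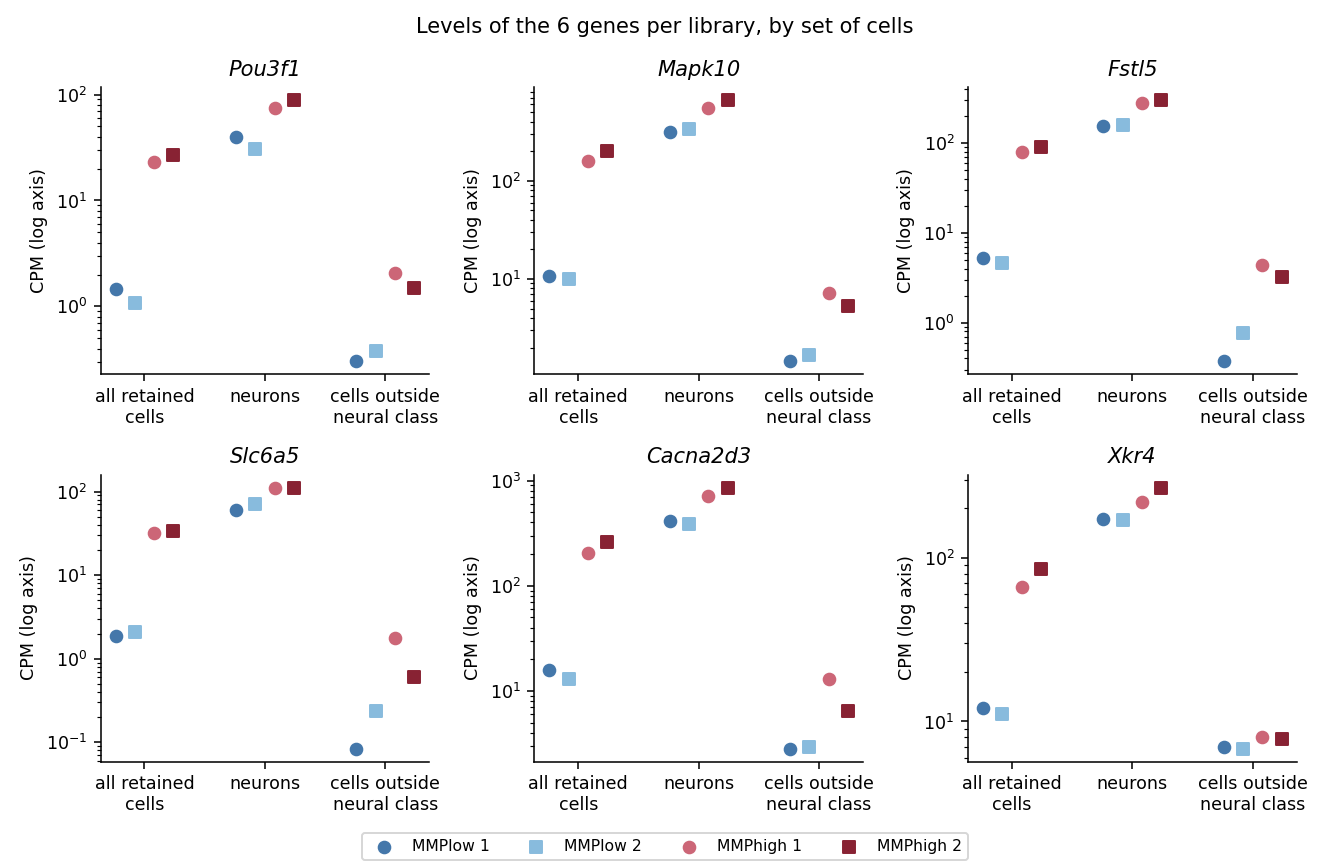
Level of each gene in CPM (log axis) in all retained cells, in neurons and in cells outside the neural class, 1 point per library. In neurons the MMPlow libraries hold 30.4 to 39.9 CPM of Pou3f1 and the MMPhigh libraries 75.2 to 88.2 CPM, while over all cells the same libraries lie at 1.07 to 1.45 and 22.8 to 27.0 CPM.

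Neural cells, the class that includes neurons and progenitors, held most transcripts of 5 of the genes in every library. The genes were chosen as neural, so this was largely fixed by the choice and is given as a description. Neural cells carried 95.6%, 88.9%, 96.1% and 98.7% of Slc6a5 UMIs in MMPlow 1, MMPlow 2, MMPhigh 1 and MMPhigh 2. The corresponding shares ran from 78.0% to 98.3% for Cacna2d3, from 83.5% to 98.1% for Mapk10, from 84.2% to 97.5% for Fstl5 and from 65.6% to 96.2% for Pou3f1. Xkr4 was the exception, with 44.5% and 40.5% in the MMPlow libraries and 91.5% and 93.6% in the MMPhigh libraries. Outside the neural class the level of Xkr4 was 6.95, 6.83, 7.99 and 7.83 CPM. In mesenchymal-like cells thinned to 2000 UMIs, 3.48%, 2.95%, 2.47% and 2.38% held an Xkr4 UMI, and in epithelial-like cells 8.47%, 6.16%, 5% and 4.76% did, the last 2 shares being 1 cell each of 20 and 21. In endothelial-like cells of the MMPlow libraries, which should lack neural genes, the Xkr4 share was 0.789% and 0.887%. For the other genes that share was between 0.0263% (Slc6a5) and 0.381% (Cacna2d3), a background of the MMPlow libraries alone. Neurons held Cacna2d3 in 26% of cells in MMPlow 2, the lowest share of any library and far above this background, and in 40.7% in MMPhigh 2, the highest. The background of the MMPhigh libraries is not given by these cells. Muscle-like cells held Cacna2d3 UMIs in 3.87%, 1.68%, 4.12% and 7.52% of cells. In macrophage-like cells Cacna2d3 UMIs were found in 0.126% and 0.103% of cells in MMPlow and in 4.36% and 1.58% in MMPhigh, where neurons were also more frequent. The part of free RNA and of doublets in this difference was not tested.

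The inhibitory and excitatory neurons of each library were compared next, a contrast that the choice of genes had not used. Neurons were called inhibitory when UMIs of Gad1, Gad2 and Slc32a1, genes for making and loading GABA, were together at least 5 times those of Slc17a6, the vesicular glutamate transporter gene, and excitatory in the opposite case. That gave 79, 87, 276 and 384 inhibitory and 46, 58, 196 and 263 excitatory neurons. The UMIs of these type genes were counted before thinning, so deeper cells could be typed more often. Slc6a5 and Cacna2d3 were far higher in inhibitory neurons, Pou3f1 and, by less, Fstl5 were higher in excitatory neurons, and Mapk10 and Xkr4 were not called. The test compared 8 sums, 2 per library, with library as a block, and called 7.27% of the 10230 genes tested, 3.65% higher and 3.63% lower in inhibitory neurons.

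Slc6a5, the glycine transporter gene, had 230, 275, 260 and 249 CPM in inhibitory neurons of MMPlow 1, MMPlow 2, MMPhigh 1 and MMPhigh 2. Its excitatory levels were 14.4, 0, 10.6 and 0.680 CPM, from 4, 0, 21 and 5 UMIs. Every inhibitory sum lay above every excitatory sum, and the log2 fold was 6.25 ± 0.65 (adjusted p = 0.0153, edgeR quasi-likelihood test). This call was lost without MMPlow 2 (6.18, adjusted p = 0.0594) and without the filter on low counts (6.23, adjusted p = 0.0667), and the fold ran from 4.76 (without MMPhigh 2) to 7.64 (without MMPhigh 1).

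Cacna2d3 had 1512, 1433, 1593 and 1802 CPM in inhibitory neurons and 57.4, 16.7, 104 and 66.9 CPM in excitatory neurons. Every library showed the difference, and the log2 fold of 4.56 ± 0.28 (adjusted p = 0.00116, edgeR) ranked 14 of 10230, with Slc6a5 at 7. The call held under every alternative run, at log2 folds of 3.94 to 4.93. Both genes were often found in the same cells. Of the neurons with a Slc6a5 UMI after thinning, 93.8%, 80%, 77.5% and 91.3% also held Cacna2d3, from 32, 40, 120 and 172 cells. Among neurons without Slc6a5 the shares were 21.5%, 19.8%, 29.1% and 30.3%, and the exact 95% binomial intervals of the 2 shares did not overlap in any library.

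Pou3f1 showed the opposite order. Its level in excitatory neurons was 50.2, 75.3, 150 and 144 CPM, and in inhibitory neurons 8.43, 11.4, 32.0 and 34.7 CPM, of which the MMPlow values rest on 3 and 5 UMIs. The log2 fold, inhibitory over excitatory, was -2.15 ± 0.11 (adjusted p = 1.46e-09, edgeR), and it ran from -2.62 to -2.11 over the alternatives. In MMPhigh 2, 16.1% of neurons with a Pou3f1 UMI held Cacna2d3, against 44.5% of neurons without one. Only 3 of 26 such neurons held Cacna2d3 in MMPlow 1, against 29.9% of the rest, and the shares were 7.14% and 26.6% in MMPlow 2 and 26.6% and 35.1% in MMPhigh 1, and the intervals overlapped in these libraries.

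Fstl5 had 208, 276, 389 and 389 CPM in excitatory and 171, 213, 269 and 264 CPM in inhibitory neurons. It was lower in inhibitory neurons of each library, by a log2 fold of -0.49 ± 0.08 (adjusted p = 0.000866, edgeR). The call was lost without MMPhigh 2 (-0.45, adjusted p = 0.0520) and with at least 2 UMIs required of the type genes (-0.47, adjusted p = 0.0574). Mapk10 had 309, 432, 647 and 736 CPM in excitatory and 396, 439, 653 and 644 CPM in inhibitory neurons, and the libraries did not share a direction. Its log2 fold was -0.003 ± 0.086. Xkr4 had 201, 226, 279 and 290 CPM in excitatory and 228, 213, 278 and 300 CPM in inhibitory neurons, a log2 fold of 0.024 ± 0.082. Neither passed the threshold (adjusted p = 0.999 and 0.980, edgeR).

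**Figure D2:**
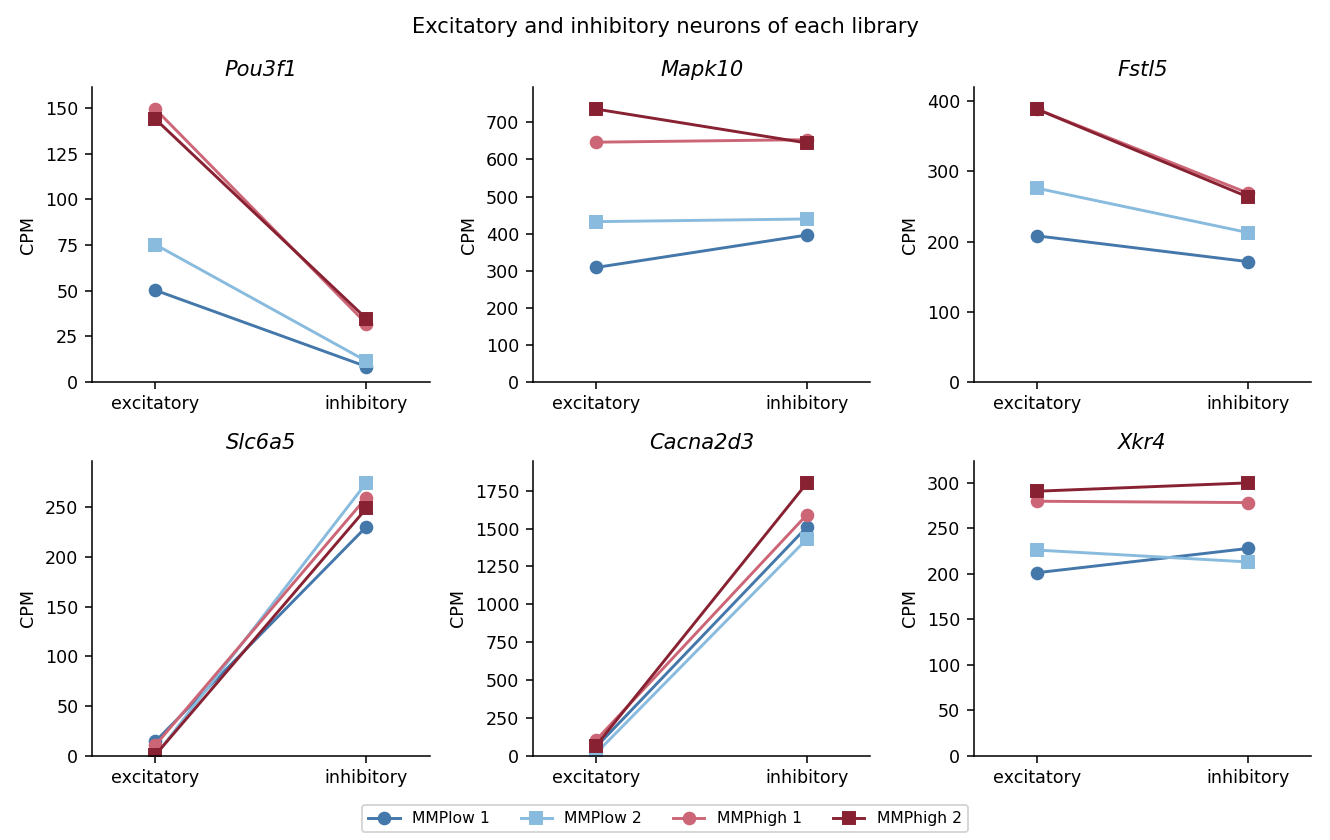
Level of each gene in CPM in excitatory and inhibitory neurons, with a line joining the 2 sums of a library. Slc6a5 and Cacna2d3 climb in all 4 libraries, from at most 14.4 and 104 CPM to at least 230 and 1433 CPM, while Pou3f1 drops in all 4.

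Genes related to each member were counted from lists, leaving out the member and any gene that had defined the neurons. Among the POU factors, 1 of 8 tested was higher in inhibitory neurons and 2 were lower, at a median log2 fold of -0.12 against 0.005 over all genes. Pou3f2, a close relative of Pou3f1, was lower (-0.99 ± 0.12), as was Pou4f1, a factor of sensory and some dorsal spinal neurons (-1.69 ± 0.28; adjusted p = 0.00014 and 0.0343, edgeR). Of 10 tested genes for glycine and GABA handling, 5 were higher and 1 lower, against the 3.65% higher and 3.63% lower of all genes given above. Those higher included the glycine receptor subunits Glra1 (0.49 ± 0.13) and Glra2 (0.75 ± 0.21) and the GABA receptor subunit Gabrb2 (0.60 ± 0.16), with Gabrg3, another GABA receptor subunit gene, lower (-2.02 ± 0.37). The adjusted p of these 4 genes ran from 0.0211 to 0.0342 (edgeR).

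Of the calcium channel genes, 1 of 12 tested was higher in inhibitory neurons and 3 were lower (3.65% and 3.63% of all genes). Cacna2d2, a subunit of the same kind as Cacna2d3, was higher in inhibitory neurons (1.31 ± 0.13, adjusted p = 3.85e-06, edgeR). Cacna2d1 was lower (-2.22 ± 0.35, adjusted p = 0.0486), so the alpha-2-delta genes did not share a direction. The pore-forming subunit gene Cacna1d (-0.55 ± 0.15) and the beta subunit gene Cacnb2 (-0.86 ± 0.16) were also lower. In the JNK list, 0 of 17 genes were higher and 1 was lower, Mapt, which encodes the microtubule protein tau (-0.47 ± 0.11), and the kinase genes Mapk8 and Mapk9 were not called. Follistatin-related genes gave 2 of 5 higher, Fstl1 (0.68 ± 0.14) and Fstl4 (0.90 ± 0.14), and 1 lower, Igfbpl1 (-0.57 ± 0.08). Fstl4, a close relative of Fstl5, thus had the opposite sign. Neither of the 2 tested XK family genes was called.

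Across finer groups, Pou3f1 and Mapk10 peaked in the same group, and Slc6a5 and Cacna2d3 shared their highest groups. Fstl5 peaked in a single group and Xkr4 had no single peak. The neural cells fell into 30 sub-clusters, found without the 6 genes, of which 24 held at least 50 cells. Of the 30, 7 had 2 or more listed markers of other classes, such as macrophages, muscle or endothelium, among their 10 leading genes, 6 of them among the 24, and 2 of the 24 were named progenitors. That count misses a sub-cluster of 40 cells led by Afp, Rbp4 and Apoa2, genes that also lead an epithelial-like cluster, and one of 127 cells with the muscle genes Acta1 and Tnnc2 among its leading genes, neither of which held 2 listed markers. Sub-clusters are named here by leading genes, and since the cells come from the same 4 libraries the values are descriptions. Unless given by library, a level is of the UMIs summed over the 4 libraries. Cacna2d3 was highest in the sub-cluster led by En1 (2700 CPM, 284 cells), the factor of V1 interneurons, and in the one led by Gata3 and Tal1 (2203 CPM, 86 cells), factors of V2b interneurons. Slc6a5 was highest in the sub-cluster led by Cartpt and Skor1 that also had Pax2 and Gad2 among its leading genes (389 CPM), followed by the En1-led one (334 CPM). Its median over the 24 was 23.0 CPM and its lowest level 2.17 CPM.

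Pou3f1 and Mapk10 were both highest in the sub-cluster led by Otp and Crabp1, with Isl1 among its leading genes (340 and 1399 CPM, 150 cells) and next in the one led by Lhx9 and Barhl2, factors of the dI1 type (277 and 1207 CPM, 156 cells). In the Otp-led group Pou3f1 stood at 268, 89.1, 358 and 352 CPM by library, and in the Lhx9-led one at 104, 158, 322 and 287 CPM. Each library held it there above its level over all neurons, but in MMPlow 2 the Lhx9-led group was the higher. Mapk10 was also high in sub-clusters led by Evx1 and Evx2 (1107 CPM), by Hmx2 and Hmx3 (1058 CPM) and by Gata3 (1027 CPM), the last also high in Slc6a5 (263 CPM) and low in Pou3f1 (29.8 CPM). Fstl5 peaked in 1 group, led by Lmx1b, the factor of dI5 neurons, with 1125 CPM against 549 CPM in the next, and with 878, 893, 1634 and 1032 CPM by library. Fstl5 had been left out of the clustering and was still among the 10 leading genes of that group, as was Pou3f1 in the Otp-led group. Xkr4 had no such single peak, with 395 CPM in the Evx2 group and 387 CPM in the group led by Sim1 and Nkx2-2, factors of V3 neurons, and a median of 241 CPM.

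**Figure D3:**
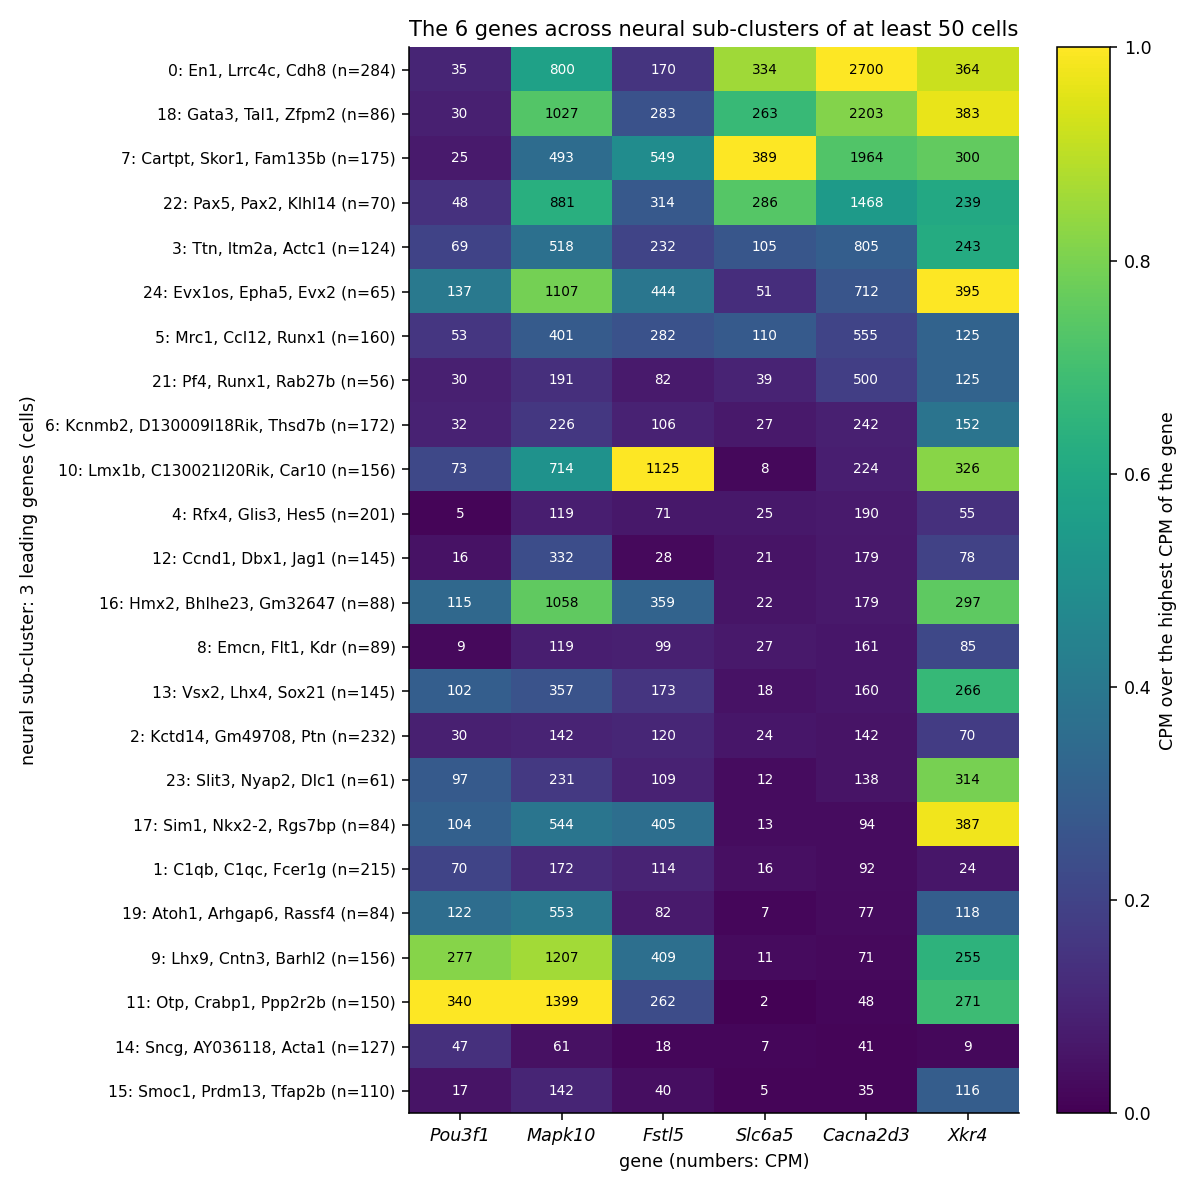
Level of each gene in the 24 neural sub-clusters of at least 50 cells, 6 of them with 2 or more listed markers of other classes among the leading genes, ordered by Cacna2d3, with the CPM printed and the colour scaled to the highest value of each gene. Cacna2d3 and Slc6a5 share the 4 top groups, with 1468 to 2700 and 263 to 389 CPM, whereas Pou3f1 and Mapk10 peak in the Otp-led group near the foot, at 340 and 1399 CPM.

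Over these 24 sums, log2(CPM + 10) of Slc6a5 and Cacna2d3 correlated at r = 0.955. Mapk10 and Xkr4 had r = 0.802, Mapk10 and Fstl5 r = 0.754, and Pou3f1 and Slc6a5 r = -0.319. The sums share libraries, depth and other cells' RNA, and no test was made. Each sum pools the libraries of both gates, and all 6 genes were chosen as higher in MMPhigh. The share of MMPhigh cells in each sum may thus enter the correlations, and its part was not tested. Without the 6 sub-clusters that held listed markers of other classes and the 2 of progenitors, an alternative chosen after seeing the data, these 4 values were 0.961, 0.757, 0.725 and -0.59 over 16 sums, and that of Pou3f1 and Cacna2d3 moved from -0.27 to -0.57. The 16 sums still include the sub-cluster of 127 cells with Acta1 and Tnnc2 among its leading genes. It held the lowest levels of Mapk10, Fstl5 and Xkr4 among the 24 (60.9, 18.1 and 9.03 CPM). Its part in the correlations of these genes was not tested. Of 9595 genes compared, those most like Slc6a5 were Gad1 (0.988) and Gad2 (0.957), which make GABA, and then Cacna2d3. Those most like Cacna2d3 were Slc6a5, Gad1 (0.953) and the neurexin gene Nrxn3 (0.925), which was itself 4.31 ± 0.25 log2 units higher in inhibitory neurons. Pou3f1 was most like Gm2164 (0.899), Tmem163 (0.822) and the calcium pump gene Atp2b2 (0.801). Mapk10 was nearest to Ppp6r2 (0.917), the nicotinic receptor gene Chrnb2 (0.913) and Zmiz2 (0.909). Fstl5 was nearest to the protocadherin gene Pcdh9 (0.918) and to Ppfia2 (0.908), and Xkr4 to Dgki (0.967), the catenin gene Ctnna2 (0.951) and Unc79 (0.949). Over the 16 sums the 3 nearest genes of Slc6a5 and of Cacna2d3 were the same, 2 of 3 remained for Pou3f1 and 1 of 3 for each of Mapk10, Fstl5 and Xkr4.

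Neurons were also marked by 1 or more UMIs of spinal type genes. A type was found for 64.3% of the 2879 neurons, and 18.2% of neurons met 2 or more types, so the groups overlap. These UMIs were counted before thinning, so deeper cells could meet more types. In MMPlow 1, MMPlow 2, MMPhigh 1 and MMPhigh 2, dI4 neurons (Ptf1a or Lbx1 with Pax2) numbered 5, 4, 60 and 147. The dI5 neurons numbered 44, 46, 281 and 324. The part of depth in these numbers and in the levels by type was not tested. Among V1 neurons (En1) Slc6a5 stood at 233 ± 52.0 CPM and Cacna2d3 at 1588 ± 125 CPM (SD, n = 4 libraries). In dI1 neurons (Barhl1, Barhl2, Lhx9) Slc6a5 stood at 35.2 ± 31.8 CPM (n = 4), and its highest library, at 62.7 CPM, lay below the lowest V1 library, at 180 CPM. Cacna2d3 in dI1 neurons was 38.7, 18.3, 415 and 568 CPM in the 4 libraries, far apart by gate. The MMPhigh values lay above the MMPhigh mean of excitatory neurons (85.3 CPM), and all 4 lay below the lowest V1 value of 1434 CPM. Pou3f1 had the opposite order, with 110 ± 27.5 CPM in dI1 and 25.9 ± 24.5 CPM in V1 neurons, and the lowest dI1 library (71.8 CPM) lay above the highest V1 library (58.6 CPM). It was highest in V0v neurons (Evx1, Evx2), at 149 ± 14.8 CPM, where Mapk10 was highest too, at 965 ± 10.5 CPM (SD, n = 2, the MMPhigh libraries). This differs from the sub-clusters, where both peaked in the Otp-led group. Types were measured in different libraries, so the levels of the remaining genes are compared within a library. Fstl5 in V1 neurons was 65.3, 55.6, 190 and 220 CPM in MMPlow 1, MMPlow 2, MMPhigh 1 and MMPhigh 2. In each library this lay below its level in dI1 neurons (177, 142, 263 and 309 CPM) and in dI5 neurons (Tlx3, Lmx1b; 164, 322, 410 and 390 CPM). By mean Fstl5 was highest in dI4 (383 ± 22.1 CPM) and V0v neurons (379 ± 12.8 CPM), both measured in the MMPhigh libraries alone, and in each of those libraries dI5 neurons held more. Mapk10 was higher in dI1 neurons (586, 564, 600 and 834 CPM) than in dI5 neurons (201, 348, 547 and 683 CPM) of every library. Xkr4 in V1 neurons (180, 223, 292 and 282 CPM) lay above its level in dI1 neurons (177, 188, 209 and 264 CPM) and in dI5 neurons (103, 120, 224 and 264 CPM) of every library. In V0v neurons Xkr4 had 375 and 295 CPM in MMPhigh 1 and 2, the highest of the types in the former but below V2b neurons (315 CPM) and V2a neurons (297 CPM) in the latter. No test was made of these orders.

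**Figure D4:**
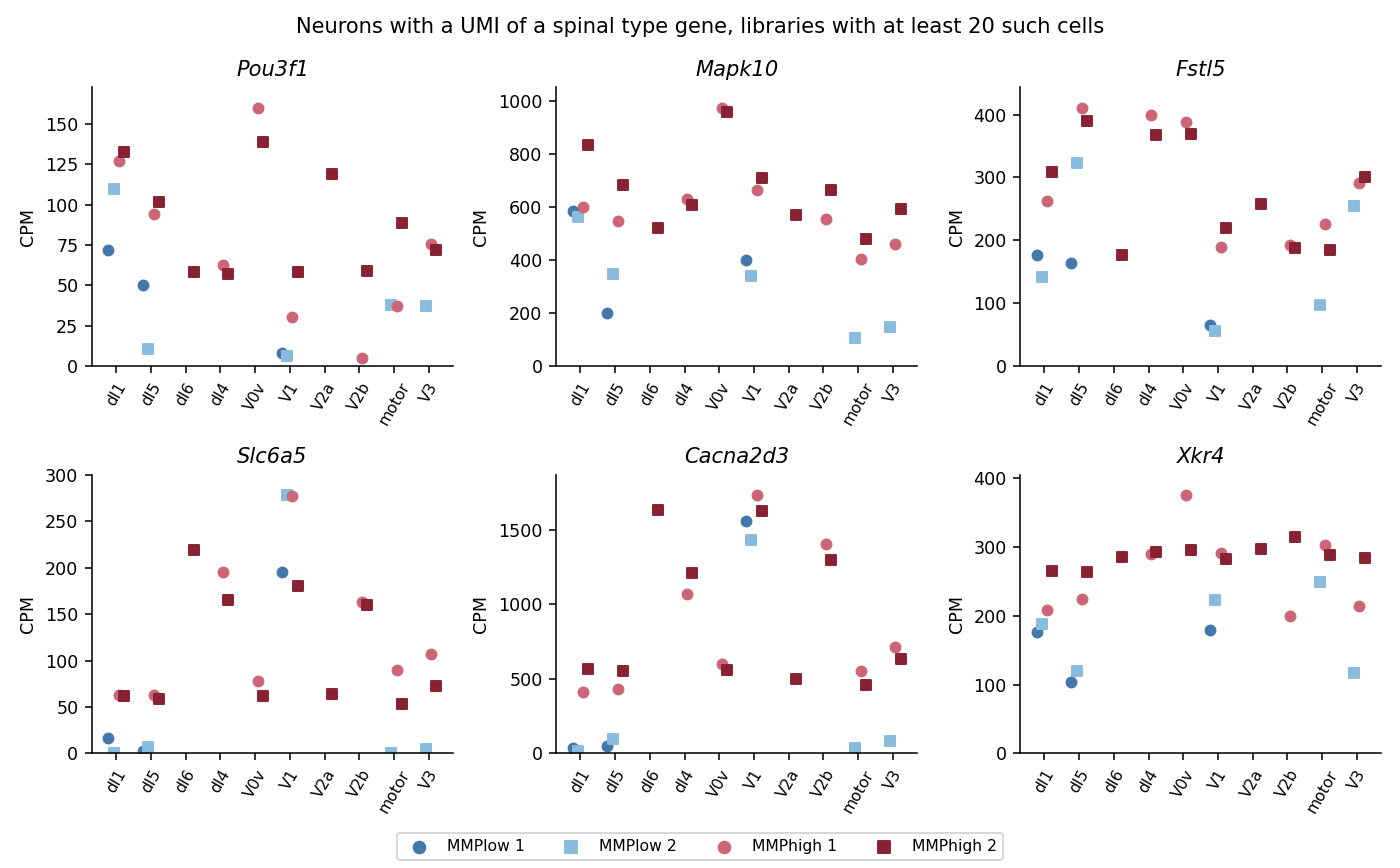
Level of each gene in CPM in neurons with a UMI of a spinal type gene, 1 point per library with at least 20 such cells. Slc6a5 and Cacna2d3 are high in V1, with 233 and 1588 CPM on average, and low in the dI1 and dI5 neurons of the MMPlow libraries, while Pou3f1 is highest in V0v, at 149 CPM.

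Levels in neurons were also set against neural tube progenitors. Neurons were far more frequent in MMPhigh, so choosing the genes by their difference between fractions largely fixed that they lie higher in neurons, and their folds are given as a description. Progenitors were neural cells with at most 1 pan-neuronal UMI, a UMI of Sox2, Sox1, Sox21, Hes5 or Pax6 and none of the glial genes, and there were only 35, 39, 20 and 10 of them. Slc6a5 had 1 UMI in all progenitors together against 4530 in neurons, a ratio of levels of 73.4 with an exact 95% counting interval of 13.2 to 2901. MMPhigh gave most neuron UMIs, and within MMPhigh, where that UMI was found, the ratio was 38.5 (6.90 to 1520). Cacna2d3 had 10 progenitor UMIs and a log2 fold of 5.40 ± 0.34. The folds were 3.56 ± 0.30 for Mapk10, 3.38 ± 0.54 for Pou3f1 (4 progenitor UMIs), 3.25 ± 0.28 for Fstl5 and 2.47 ± 0.28 for Xkr4. The fold of Pou3f1 ran from 2.63 (without MMPhigh 2) to 5.02 (cells of at least 5000 UMIs). In this contrast 14.1% of 9536 genes were called higher in neurons and 10.8% lower (edgeR). Among their relatives, 9 of 14 tested JNK genes, 7 of 10 calcium channel genes, 6 of 10 glycine and GABA genes, 4 of 8 POU factors, 2 of 5 follistatin-related genes and both XK genes were higher in neurons, and 0, 1, 1, 1, 1 and 0 of them, in that order, were lower.

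Within neurons, the levels of all 6 genes lay above those of MMPlow in both MMPhigh libraries, which describes the contrast the genes were chosen on. Neurons held 416 and 388 CPM of Cacna2d3 in MMPlow 1 and 2 and 713 and 860 CPM in MMPhigh 1 and 2. Mapk10 had 317, 335, 552 and 660 CPM, Fstl5 156, 159, 278 and 299 CPM, and Slc6a5 59.8, 70.4, 112 and 111 CPM. Pou3f1 had 39.9, 30.4, 75.2 and 88.2 CPM and Xkr4 173, 169, 218 and 268 CPM. The 2 gates did not overlap for any of the 6, as for 24.6% of genes in this direction. Log2 folds were 1.27 ± 0.17 (Pou3f1), 1.01 ± 0.16 (Cacna2d3), 0.94 ± 0.15 (Mapk10), 0.92 ± 0.14 (Fstl5), 0.81 ± 0.14 (Slc6a5) and 0.55 ± 0.15 (Xkr4). All but Xkr4 (adjusted p = 0.0547) passed the threshold, where 2.25% of 14210 genes were called higher and 3.28% lower, and nothing is read from that count. Of their relatives, 2 of 9 POU factors, 2 of 17 JNK genes, 3 of 18 glycine and GABA genes, 2 of 13 calcium channel genes and 1 of 3 XK genes were called higher, and 1 of 7 follistatin-related genes lower.

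Markers of other cell types and measures of quality are given for the same neurons. The 10 endothelial genes summed to 670 and 530 CPM in MMPlow neurons and to 40.8 and 16.1 CPM in MMPhigh neurons, none being at 0 in any library. The megakaryocyte genes (299, 314, 76.5 and 59.4 CPM), the granulocyte or mast cell genes (219, 216, 30.3 and 14.2 CPM, with Ctsg at 0 in every library) and the erythroid genes (805, 91.8, 35.4 and 23.0 CPM) were likewise lower in both MMPhigh libraries. Muscle genes (92.9, 115, 142 and 207 CPM) and epithelial genes (93.5, 84.8, 130 and 136 CPM) were higher in both. The epithelial genes stood at 287, 288, 273 and 292 CPM in inhibitory neurons and at 35.9, 8.36, 20.1 and 9.52 CPM in excitatory ones. In inhibitory neurons of MMPlow 1 Pax8 was the only gene of that list above 0. Macrophage genes (143, 113, 225 and 38.7 CPM), haematopoietic progenitor genes (291, 225, 238 and 197 CPM) and mesenchymal genes (72.3, 108, 104 and 80.7 CPM) followed no common order. The share of neurons in the 7 sub-clusters that held 2 or more listed markers of other classes was 15.8%, 6.62%, 47.4% and 9.10%, overlapping between gates. Without those sub-clusters the 5 genes were still called, but far more genes in all were called than in the main test (counts below), so nothing is read from these calls. The pan-neuronal genes summed to 4318, 4350, 4804 and 5665 CPM and mitochondrially encoded genes took 2.20%, 2.20%, 3.23% and 3.19% of UMIs, both higher in MMPhigh. Median UMIs per neuron, at 3986, 4526, 3850 and 19223, were lowest in one MMPhigh library and highest in the other. The part of these measures in the members' differences was not tested. Leaving out neurons with any endothelial UMI kept only 39 and 51 MMPlow neurons, against 977 and 753 in MMPhigh. The log2 folds were then 1.84 for Pou3f1, 1.23 for Fstl5, 1.16 for Mapk10, 0.56 for Cacna2d3 and 0.35 for Slc6a5, and none of these 5 genes was called (adjusted p from 0.135 to 0.547, edgeR). With each neuron thinned to 2000 UMIs none was called either, at 0.55 to 1.37 (adjusted p from 0.0617 to 0.631). Leaving out MMPlow 2 ended all 5 calls (adjusted p from 0.0567 to 0.121), and leaving out MMPlow 1 ended all but that of Pou3f1 (adjusted p from 0.135 to 0.186).

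Split by transmitter, the differences between gates were smallest for Slc6a5 and Cacna2d3 in inhibitory neurons. The 6 genes were chosen on the contrast between gates in these same libraries. Their folds and calls in this paragraph are therefore descriptions, and nothing is read from the calls. In inhibitory neurons the MMPhigh over MMPlow log2 fold of Slc6a5 was 0.008 ± 0.146, its levels in the 2 gates overlapping, and that of Cacna2d3 was 0.21 ± 0.14. Pou3f1 had 1.74 ± 0.39 and Mapk10 0.64 ± 0.14, both called (adjusted p = 0.0314 and 0.0294, edgeR) where 1.09% of 11612 genes were called higher. The levels of Pou3f1 in inhibitory neurons of MMPlow 1 and 2 rested on 3 and 5 UMIs. Fstl5 had 0.47 ± 0.15 and Xkr4 0.40 ± 0.14, neither called (adjusted p = 0.131 and 0.167), although both were without the filter on low counts (0.0176 and 0.0432). Without MMPlow 1 or without MMPlow 2 none of the 6 was called, and Pou3f1 was not called without MMPhigh 2 (adjusted p = 0.0798) or by DESeq2 (0.132). Of the alternatives other than leaving out a library, 5 of 11 ended the call of Pou3f1 and 3 of 12 that of Mapk10. In excitatory neurons, where 0.0195% of 10245 genes were called higher, none of the 6 genes was called (edgeR; 1231 genes lay at an unadjusted p under 0.05, and DESeq2 called 125 in either direction, Mapk10 among them at 0.0378). The log2 folds were 1.25 ± 0.46 (Cacna2d3), 1.20 ± 0.23 (Pou3f1), 0.90 ± 0.21 (Mapk10), 0.68 ± 0.19 (Fstl5) and 0.42 ± 0.18 (Xkr4), with adjusted p from 0.0685 to 0.393. Without the filter on low counts all of these but Xkr4 were called (adjusted p from 9.23e-05 to 0.0230). Pou3f1 was called without MMPhigh 1 (0.0292) or MMPhigh 2 (0.0366), and Cacna2d3 without MMPhigh 2 (0.00689). Slc6a5 in excitatory neurons rested on 4, 0, 21 and 5 UMIs. The levels in excitatory neurons of MMPlow 1 and 2 rested on 16 and 6 UMIs for Cacna2d3 and on 14 and 27 for Pou3f1. Inhibitory neurons were 63.2%, 60%, 58.5% and 59.4% of typed neurons, with exact 95% intervals that overlapped between all 4 libraries. However, 62.1%, 63.1%, 58.8% and 36% of neurons were not typed. Inhibitory neurons gave 22.2%, 21.8%, 35.9% and 38.9% of the UMIs of all neurons in the 4 libraries, higher in both of MMPhigh, and excitatory neurons gave 17.4%, 17.9%, 19.6% and 25.9%. The share of inhibitory neurons in the summed UMIs was thus higher in MMPhigh, but it also depends on which neurons were deep enough to be typed. Median UMIs per cell were 4233, 4675, 6334 and 19104 in inhibitory neurons and 3986, 4526, 3850 and 19223 in all neurons. The part of depth in this share, and of this share in the folds over all neurons, was not tested.

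**Figure D5:**
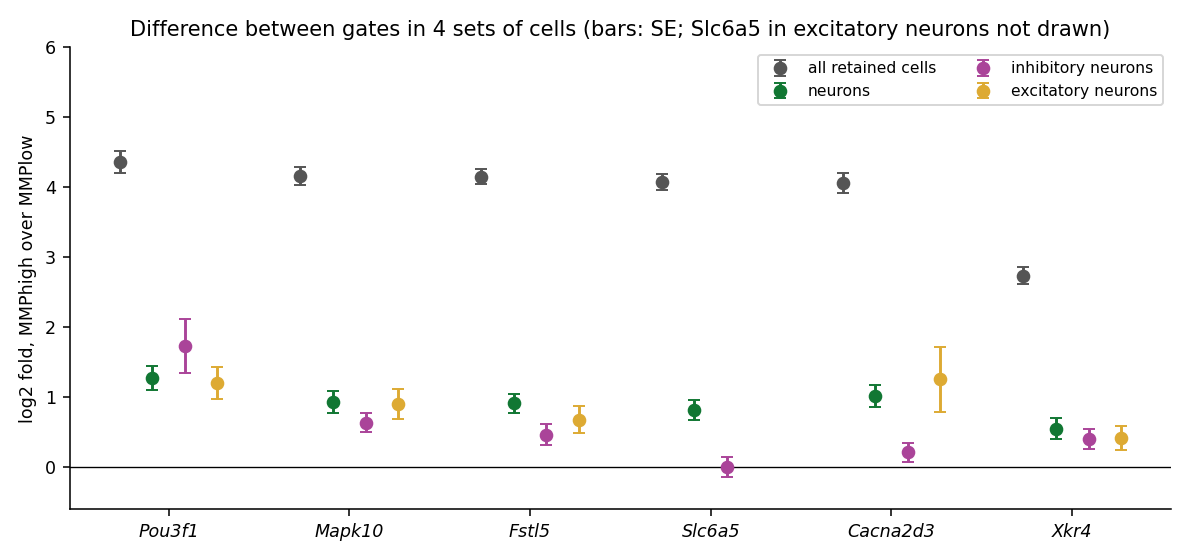
Log2 fold of MMPhigh over MMPlow with its SE for each gene in all retained cells, neurons, inhibitory neurons and excitatory neurons; Slc6a5 in excitatory neurons is not drawn because it rests on few UMIs. Over all cells 5 genes lie between 4.06 and 4.36 and Xkr4 at 2.74, and within neurons all 6 lie between 0.55 and 1.27.

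Whether the inhibitory over excitatory difference itself changed with the gate was tested in 1 model of the 8 sums. None of the 6 genes was called (adjusted p from 0.985 to 1, edgeR), where 0.0354% of 11302 genes were, and 601 lay at an unadjusted p under 0.05. The change in log2 fold was 0.52 ± 0.49 for Pou3f1, -0.28 ± 0.19 for Mapk10, -0.23 ± 0.19 for Fstl5, -1.04 ± 0.55 for Cacna2d3 and -0.03 ± 0.19 for Xkr4, and for Slc6a5 it had an SE of 3.41.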

How the data were processed

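Single-cell 3′ libraries (10x Genomics, v3 chemistry) targeted no more than 10000 cells a lane, per the labels' protocols. The authors deposited matrices of whole-number UMI counts per gene and barcode with no normalization. Cell Ranger is given as 7.0.1 per the file headers and as 2.1.1, with build mm10, per the submitters' processing notes. The annotation and the treatment of introns are not given in the sources used here.

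Barcodes with at least 2000 UMIs, at least 1000 genes and under 25% mitochondrially encoded UMIs were kept (16700, 19579, 4403 and 3486 of 59928, 23715, 13939 and 4288). Scrublet (scanpy 1.11.5) marked 2, 996, 0 and 68 of these and was taken not to have worked, so the highest 6% of its scores per library were removed instead. Cells were clustered with the 6 genes left out (2000 variable genes, 30 components, Leiden). Resolution 0.2 and the naming thresholds were chosen after seeing clusters at several resolutions. Sub-clusters used resolution 1. A cluster took a class name from its list of markers at a mean log2 fold of at least 0.5 with at least 3 markers at log2 fold 1.

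UMIs were summed per library and set of cells and tested with edgeR 4.0.16 (R 4.3.3; quasi-likelihood F-test, TMM, filterByExpr, two-sided, Benjamini-Hochberg over all genes tested, threshold 0.05). Alternatives were DESeq2 1.42.0, its size factors, no filter, other cuts on cells, depth, doublets, libraries, the replicate number as a block, and 5 added after seeing the data. With 2 libraries against 2, an exact permutation test cannot go below p = 0.333, so none is given. On simulated sums, log2 changes of 1 and 2 were recovered for 35% and 86% of genes in the gate test in neurons (14210 genes), for 99% and 100% in the test of types (10230 genes) and for 47% and 84% against progenitors (9536 genes). The simulated sums gave all genes a common dispersion and no difference between libraries beyond depth. These shares therefore do not give the power of the tests on the real sums, where a gene not called may still differ. The SE of an edgeR log2 fold was its absolute value divided by the square root of the F statistic of its test, so it restates that test. Intervals cover counting error only. The named genes were the 6 members, the 3 genes most like each and 6 family lists; members, lists and markers were chosen with earlier results of these data known. Some genes that this rule names are not reported here. Same-numbered libraries deviated together at r = 0.0346 over all cells and r = 0.101 in neurons. With 2 libraries per gate this cannot decide whether equal numbers share a sort or litter, so no pairing was used in the main tests.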

Additional observations from a re-analysis of the deposited data

Results flagged for a closer look

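Of the related genes, 2 had an inhibitory over excitatory difference that changed with the gate by the interaction test (edgeR, 11302 genes). Cacna2d1, which encodes a subunit of the same kind as Cacna2d3, changed by 1.51 ± 0.21 on the log2 scale (adjusted p = 0.0161). Its levels were 87.1, 105, 420 and 425 CPM in inhibitory and 804, 1126, 1405 and 1526 CPM in excitatory neurons of MMPlow 1, MMPlow 2, MMPhigh 1 and MMPhigh 2. Tmem163, 1 of the 3 genes most like Pou3f1, changed by 2.62 ± 0.38 (adjusted p = 0.0200), with 8.43, 18.3, 162 and 121 CPM in inhibitory neurons, from 3, 8, 588 and 1336 UMIs, and 463, 527, 814 and 792 CPM in excitatory neurons. Without MMPlow 2 neither was called (adjusted p = 0.0827 and 0.356), and Cacna2d1 was not called without MMPhigh 1 (0.0554), nor Tmem163 without MMPlow 1 (0.201). Of 10 other alternatives, 3 ended the call of Cacna2d1 and 5 that of Tmem163. In cells of at least 5000 UMIs the changes were 0.813 and 2.00 (adjusted p = 0.858 and 0.618), without the 7 sub-clusters with listed markers of other classes 1.26 and 2.49 (0.653 and 0.111), and with at least 2 UMIs of the type genes 1.69 and 2.92 (0.0786 and 0.172). Tmem163 was also not called after thinning (0.0972) or with doublets kept (0.0647).

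All 6 genes were also found in barcodes that the filters left out and no comparison used, 43228, 4136, 9536 and 802 of them. They held 340 UMIs of Pou3f1, 1113 of Mapk10, 667 of Fstl5, 285 of Slc6a5, 1544 of Cacna2d3 and 714 of Xkr4, above the 3 counts that a count of 0 allows. Cacna2d3 stood there at 3.31, 12.3, 113 and 66.6 CPM, and Xkr4 at 5.10, 7.33, 33.4 and 32.1 CPM.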

How the results depend on the processing

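Over all cells, where the choice of the genes fixed their calls, the count of 10951 ran from 8864 to 11891, and from 7819 to 10882 leaving out 1 library. Within sets of neurons the counts moved. Without the filter on low counts, 1841, 940 and 415 genes were called between gates in neurons, inhibitory and excitatory neurons, against 786, 353 and 59, and 43 against 4 in the test of the difference between gates. With the replicate number as a block the first 3 counts were 2230, 867 and 225. The block, like 6 of the other 11 alternatives, made Xkr4 called in neurons. It also made Pou3f1, Mapk10 and Cacna2d3 called in excitatory neurons. Whether equal numbers pair the libraries is not known. Keeping doublets gave 1617 (neurons), 164 (excitatory) and 1 (difference). Thinning gave 107, 113 and 25, and 350 for inhibitory against excitatory neurons (744) and 891 for neurons against progenitors (2381). Without any endothelial UMI the counts were 17, 49 and 16. Without the 7 sub-clusters with listed markers of other classes they were 2325 (neurons), 559 (inhibitory) and 0 (difference), and with neurons of any cluster 2343. At 5000 UMIs or more, 113 (inhibitory) and 1 (difference) were called. DESeq2 called 125 in excitatory neurons and 493 between types. A type cut of 2 UMIs gave 27 and Scrublet's own calls 93 in excitatory neurons. Leaving out 1 library gave 73 to 2255 in neurons, 109 to 546 in inhibitory and 0 to 138 in excitatory neurons, 313 to 757 between types and 6 to 25 for the difference.

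Some directions turned, and the cause was not tested. Slc6a5 in inhibitory neurons was -0.0086 at 5000 UMIs, -0.043 without endothelial UMIs, -0.025 with Scrublet's calls and -0.088 to 0.22 leaving out 1 library. There, Cacna2d3 was -0.0040 without endothelial UMIs and Xkr4 -0.094 when thinned, from 0.40. Between types, Mapk10 was 0.0058 by DESeq2, 0.011 without the library block, 0.10 at 5000 UMIs, 0.014 with doublets, 0.0060 with Scrublet's calls, 0.025 without those 7 sub-clusters and -0.063 to 0.093 leaving out 1 library. Xkr4 was -0.033 at 2 type UMIs and -0.16 when thinned. Slc6a5 in excitatory neurons ran from -1.66 to 6.89 leaving out 1 library. For the difference between gates, Slc6a5 ran from -6.73 to 3.14 and Xkr4 from -0.13 to 0.053 leaving out 1 library, Xkr4 was 0.040 with neurons of any cluster, Pou3f1 -0.16 at 5000 UMIs (from 0.52) and Fstl5 0.035 when thinned. Beyond the 6 genes, only Cacna2d1 and Tmem163, in the test of the difference, were recomputed; the other related genes were not.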
